A study of Mus musculus with 10 samples.

Results

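Complement is a set of plasma and cell-surface proteins that tag particles for uptake and call in phagocytes. C1q, assembled from 3 kinds of chain, starts the classical pathway when it binds antibody complexes or dying cells, and C3, the central component, is cut to a fragment that coats the target and a small fragment, C3a, that signals to leukocytes. Properdin stabilises the alternative pathway convertase that cuts C3. Macrophages are a main source of C1q, and they read complement products through receptors for C3a, for C5a and for C3 fragments on coated particles. The genes described here are 9 of these components and receptors, taken by name: C1qa, C1qb, C1qc, C3, Cfp, C3ar1, C5ar1, Itgam and Vsig4. All 9 were found among the 55414 genes of the count table, and all 9 were among the 14669 genes with enough reads to be tested.

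The libraries were 5 from mice with the genotype label Fpr2KO (Fpr2-/- in the design text) and 5 from wild-type mice labelled C57BL/6N (WT). Fpr2 is a formyl peptide receptor of myeloid cells. Polyadenylated RNA came from splenic macrophages separated with magnetic beads and an antibody against F4/80, a macrophage surface protein. The labels give no age, no sex, no treatment and no background strain of the mutant, and they do not say that replicates came from separate animals, so a p-value here reflects only how far these libraries differ from one another, and that spread may be technical.

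Fpr2 had 0 reads over the Fpr2KO libraries and 1983 over the WT libraries. Libraries held 15865820 to 19060188 counts. Red pulp macrophage markers were abundant in both groups (11 genes with a summed level of 6797 to 9374 CPM, reads scaled to a common library total, in Fpr2KO and 7044 to 9089 CPM in WT). Transcripts of other cells were present as well: the 6 B cell markers summed to 2646 to 3638 CPM in Fpr2KO and 1968 to 2979 CPM in WT. All 10 libraries carried the Y-linked gene Ddx3y (at least 2300 reads each), and Xist had 12 reads in all, which bears on the X-linked members Cfp and Vsig4. In such bulk samples, fewer cells of a type and less RNA per cell cannot be told apart.

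The comparison asked how complement transcripts of splenic macrophages differed without Fpr2. The 3 C1q chains and properdin had higher estimates in Fpr2KO, by 6.10% to 19.4%, and C3 and the 4 receptor genes had lower ones, the lowest being that of the C5a receptor C5ar1. By edgeR's quasi-likelihood test, 0 of the 9 members had a false discovery rate (FDR, Benjamini-Hochberg) under 0.05, and their smallest FDR was 0.192. Of all genes tested, 0.0682% passed in either direction and 0.0614% passed as lower in Fpr2KO. At an unadjusted p under 0.05, 3 members were lower in Fpr2KO (C5ar1, Itgam and C3) and 0 were higher, against 4.92% of all genes tested that were lower, 4.88% that were higher and 9.8% in either direction. The median log2 fold change of the 9 members was -0.24, beside 0.01 over all genes tested. DESeq2 called 185 genes, 0.647% of the 28579 with a p-value, which include genes that its filter left without an adjusted p. With DESeq2, C5ar1 and Itgam passed (adjusted p of 0.00447 and 0.027). With limma voom, which called 0.0886% of the genes tested, no member did.

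**Figure D1:**
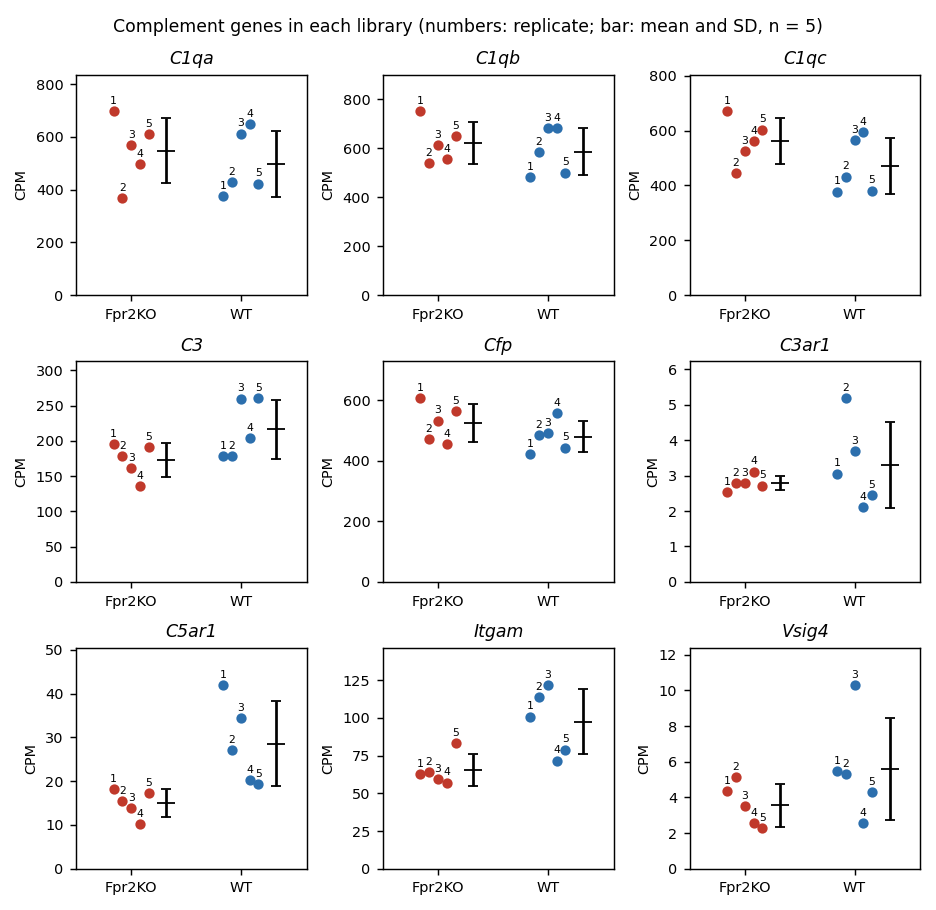
CPM (vertical axis, from 0) of the 9 complement genes in each library, Fpr2KO in red and WT in blue, with the replicate number at each point and the mean and SD (n = 5) as a bar. The C1q chains and Cfp overlap between groups, whereas all 5 Fpr2KO libraries lie below all 5 WT libraries for C5ar1.

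The C1q chains were the most abundant members. To set genes side by side, levels were taken per length, as CPM per kilobase of exon. C1qb averaged 572 ± 77.9 in Fpr2KO and 539 ± 88.0 in WT, and C1qa 527 ± 119 in Fpr2KO and 478 ± 120 in WT (SD, n = 5 each, in this paragraph). Cfp followed at 303 ± 36.5 in Fpr2KO and 276 ± 29.9 in WT, and C1qc at 291 ± 43.7 in Fpr2KO and 243 ± 53.3 in WT. C3 stood below these, at 33.6 ± 4.75 in Fpr2KO and 42.1 ± 8.09 in WT. The receptors were lower still. Itgam had 13.02 ± 2.08 in Fpr2KO and 19.4 ± 4.31 in WT, and C5ar1 had 5.84 ± 1.23 in Fpr2KO and 11.1 ± 3.74 in WT. Vsig4 had 2.41 ± 0.812 in Fpr2KO and 3.77 ± 1.94 in WT, and C3ar1 had 0.648 ± 0.0486 in Fpr2KO and 0.766 ± 0.283 in WT. The order of the 9 means was the same in both groups. Neighbours whose libraries overlapped in both groups were C1qb with C1qa and Cfp with C1qc, and Itgam overlapped with C5ar1 in WT but not in Fpr2KO. The place of Itgam depends on how its reads were counted, because 3450 of its 5024 exon bases also lie in exons of Gm49368, a longer gene model on the same strand. Per length of the other 1574 bases its level would be 41.6 in Fpr2KO and 61.9 in WT, above C3, and the sources used here do not say whether reads in the shared bases were dropped.

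**Figure D2:**
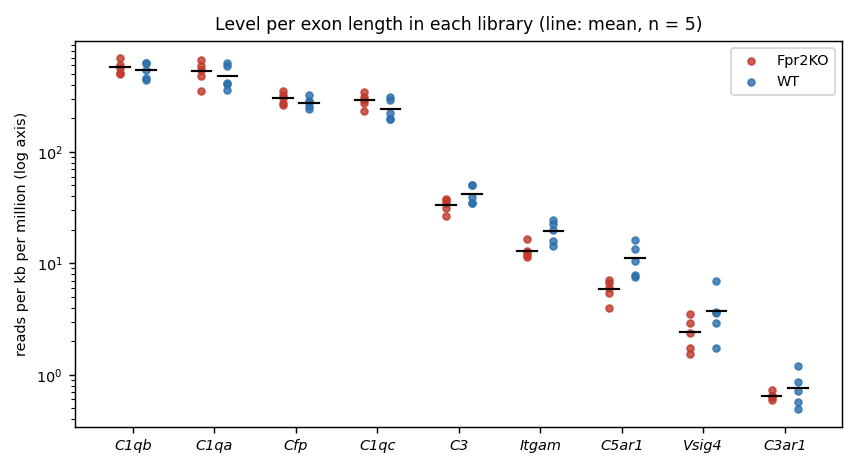
Level of each member per exon length (CPM per kilobase, log axis) in the 5 Fpr2KO (red) and 5 WT (blue) libraries, with lines at the means. The members fall in the same order in both groups, from C1qb at 572 in Fpr2KO and 539 in WT to C3ar1 at 0.648 in Fpr2KO and 0.766 in WT.

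C1qa, C1qb and C1qc encode the A, B and C chains of C1q and lie side by side on the minus strand of chromosome 4, within 136880129 to 136898803 of GRCm38. C1qc (136889804 to 136893065) was measured at 671, 446, 524, 562 and 604 CPM in Fpr2KO replicates 1 to 5, and at 377, 432, 565, 594 and 381 CPM in WT replicates 1 to 5. The WT libraries split into replicates 3 and 4 at the level of most Fpr2KO libraries and replicates 1, 2 and 5 below all Fpr2KO libraries. The log2 fold change was 0.26 (SE 0.14, FDR = 0.582 by edgeR). C1qa (136895917 to 136898803) averaged 548 ± 124 CPM in Fpr2KO and 497 ± 124 CPM in WT (SD, n = 5), a log2 fold change of 0.14 (SE 0.19, FDR = 0.829, edgeR). C1qb (136880129 to 136886187) averaged 622 ± 84.8 CPM in Fpr2KO and 586 ± 95.7 CPM in WT (log2 fold change 0.09, SE 0.12, FDR = 0.841). For all 3 chains the genotype difference was within the spread between replicates. Without Fpr2KO replicate 1, the highest library for each chain, the log2 fold change was 0.17 for C1qc, 0.030 for C1qa and -0.0015 for C1qb.

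The proportion of the chains varied little. Per length, C1qa made up 32.8% to 39.5% of the C1q transcript signal in Fpr2KO libraries and 35.0% to 40.0% in WT libraries, and C1qb 40.0% to 45.8% in Fpr2KO and 40.3% to 45.9% in WT. C1qc made up 19.7% to 22.7% in Fpr2KO and 18.6% to 19.7% in WT. Relative to C1qb in the same library, C1qc differed by 0.18 as a log2 ratio (mean -0.15 ± 0.11 in Fpr2KO and -0.33 ± 0.09 in WT; SD, n = 5). An exact two-sided permutation test over all assignments of the libraries to groups gave p = 0.0397, and 0.0833 after Benjamini-Hochberg adjustment over the 7 ratios compared, so this difference did not pass. The ratio of C1qa to C1qb differed by 0.05 (SE 0.11, exact permutation p = 0.659), with a range of 0.0055 to 0.14 when 1 library was left out.

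The C1q chains varied together from library to library, and properdin with them. After subtracting group means from log2 CPM, C1qa and C1qc had a Pearson's r of 0.95 over the 10 libraries (exact permutation within groups p = 0.00111, adjusted p = 0.02; Spearman's rho = 0.98, exact p = 0.000347, adjusted p = 0.0125). C1qa and C1qb had r = 0.92 (exact p = 0.00215, adjusted p = 0.02; rho = 0.92, exact p = 0.00236, adjusted p = 0.0283), and C1qb and C1qc r = 0.93 (exact p = 0.00229, adjusted p = 0.02; rho = 0.88, exact p = 0.00951, adjusted p = 0.0685). Without the 2 libraries farthest from the median these r were 0.93, 0.93 and 0.92. Cfp lies on chromosome X (20925454 to 20931555), away from the C1q cluster, and had r = 0.92 with C1qb (exact p = 0.000347, adjusted p = 0.0125; rho = 0.88, exact p = 0.00194, adjusted p = 0.0283), or 0.87 without the 2 farthest libraries. Its r was 0.86 with C1qa (exact p = 0.00278, adjusted p = 0.02; rho = 0.85, exact p = 0.00347, adjusted p = 0.0313) and 0.80 with C1qc (exact p = 0.00757, adjusted p = 0.0454; rho = 0.77, exact p = 0.0146, adjusted p = 0.0875), and 0.82 and 0.77 without those libraries. These 6 were the pairs that passed by Pearson's r of the 36 pairs of members, adjusted over the 36, and 4 of them passed by Spearman's rho. The other 30 pairs had r from -0.36 to 0.71, and the highest of these were pairs of receptors (C5ar1 with Itgam, and C3ar1 with Itgam at 0.68). The value for C3ar1 with Itgam joins opposite signs, -0.40 within Fpr2KO and 0.88 within WT, and was 0.49 without the 2 farthest libraries. The levels share library composition and depth, and the correlation does not say what the genes have in common.

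**Figure D3:**
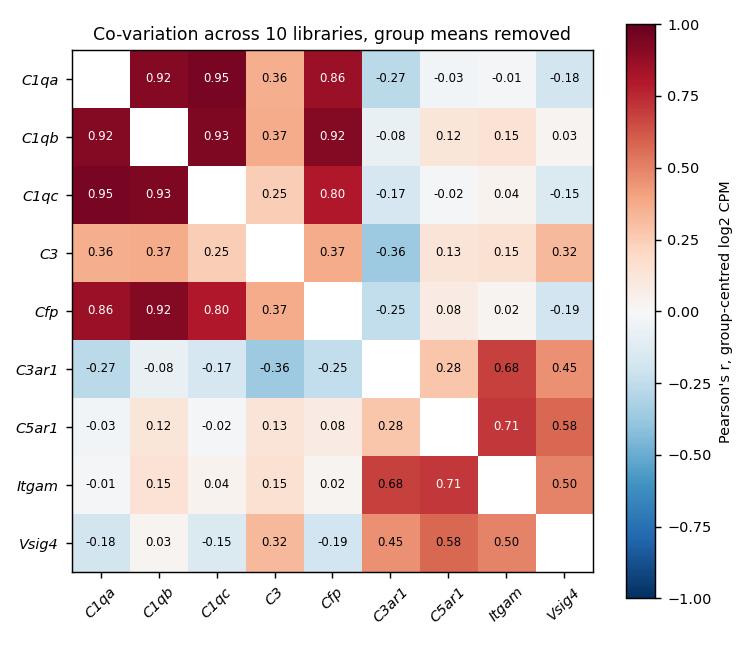
Pearson's r of group-centred log2 CPM over the 10 libraries for each pair of the 9 members (colour and printed value, red positive, blue negative). C1qa, C1qb, C1qc and Cfp form a block with r of 0.80 to 0.95, and C3 and the receptors stand outside it.

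The promoters of C1qb, C1qc and Cfp are shown because these genes varied together. Each is the 250 bases before the RefSeq start on GRCm38.p6, from 5′ to 3′ in the direction of the gene, and C1qa had no entry. Capitals mark GAGGAA, the core bound by the myeloid ETS factor PU.1, and TGCTGA, a core bound by Maf family factors, each on either strand (TTCCTC and TCAGCA). C1qb lies at chr4:136886201-136886450, C1qc at chr4:136892915-136893164 and Cfp at chrX:20931556-20931805, all on the minus strand.
C1qb: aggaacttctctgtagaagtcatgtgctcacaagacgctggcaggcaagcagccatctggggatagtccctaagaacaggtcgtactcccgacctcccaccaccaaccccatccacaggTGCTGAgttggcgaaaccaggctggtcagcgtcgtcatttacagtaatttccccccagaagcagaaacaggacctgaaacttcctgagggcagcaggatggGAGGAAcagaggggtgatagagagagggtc
C1qc: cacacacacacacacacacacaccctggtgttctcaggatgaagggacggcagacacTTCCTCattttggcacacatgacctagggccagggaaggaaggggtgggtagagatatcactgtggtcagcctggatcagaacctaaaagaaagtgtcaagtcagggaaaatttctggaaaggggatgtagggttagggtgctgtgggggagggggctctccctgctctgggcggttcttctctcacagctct
Cfp: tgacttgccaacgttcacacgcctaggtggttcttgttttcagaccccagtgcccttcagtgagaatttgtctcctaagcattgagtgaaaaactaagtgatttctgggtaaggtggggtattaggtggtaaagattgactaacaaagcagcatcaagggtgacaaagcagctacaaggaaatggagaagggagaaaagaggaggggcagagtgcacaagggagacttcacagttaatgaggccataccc
C1qb had 1 match to each motif, at bases -30 to -25 and -131 to -126 from the start, C1qc had 1 match to GAGGAA at -193 to -188, and Cfp had none in this window. The RefSeq start of C1qc lies inside the GENCODE gene model, which reaches 136893065, so part of the C1qc window is within that gene model. Of the 32851 promoters in the RefSeq table, 23.3% held GAGGAA and 16.1% held TGCTGA within these 250 bases. Among the 8 members with an entry, 4 held GAGGAA (C1qb, C1qc, Itgam and Vsig4) and 4 held TGCTGA (C1qb, C3, C3ar1 and C5ar1), with no overlap of the motifs. A match describes letters and not binding.

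Properdin was measured at 607, 471, 533, 454 and 563 CPM in Fpr2KO and at 422, 484, 492, 557 and 443 CPM in WT. The groups overlapped, with Fpr2KO replicates 1 and 5 above all WT libraries (log2 fold change 0.13, SE 0.10, FDR = 0.690 by edgeR). C3 lies on chromosome 17 (57203970 to 57228136), the chromosome of Fpr2 (17887824 to 17893952). It was measured at 196, 179, 162, 136 and 192 CPM in Fpr2KO and at 179, 178, 260.2, 204 and 261 CPM in WT. All 5 Fpr2KO libraries lay below the WT mean, but WT replicates 1 and 2 lay within the Fpr2KO range. The log2 fold change of C3 was -0.32 (SE 0.13, unadjusted p = 0.028, FDR = 0.449 by edgeR). Within a library, the log2 ratio of C3 to Cfp averaged -1.61 ± 0.14 in Fpr2KO and -1.16 ± 0.31 in WT (SD, n = 5), a difference of -0.44 (SE 0.15, exact permutation p = 0.0238, adjusted p = 0.0833 over the 7 ratios). C3 was the member that went most with the mean log2 CPM of the classical monocyte markers (r = 0.76, exact permutation p = 0.0149, adjusted p = 0.202 over 27 relations; rho = 0.81, exact p = 0.0168, adjusted p = 0.227). That relation did not pass. Without the 2 libraries farthest from the median marker level its r was 0.79.

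C5ar1, the G protein-coupled receptor for C5a on neutrophils, monocytes and macrophages, lies on chromosome 7 (16246743 to 16259540, minus strand). Its level was 18.2, 15.5, 13.8, 10.2 and 17.2 CPM in Fpr2KO replicates 1 to 5, and 41.9, 27.1, 34.3, 20.2 and 19.3 CPM in WT replicates 1 to 5. All 5 Fpr2KO libraries were below all 5 WT libraries, as were those of 0.566% of all genes tested, but WT replicates 4 and 5 lay close to the highest Fpr2KO library. The mean was 15.0 ± 3.16 CPM in Fpr2KO and 28.6 ± 9.61 CPM in WT (SD, n = 5). The log2 fold change was -0.93 (SE 0.23), which is 47.5% lower, with an unadjusted p = 0.00146 and FDR = 0.192 by edgeR. It rested on 1304 reads in Fpr2KO and 2440 in WT.

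C3ar1, the receptor for C3a, was the scarcest member, with 244 reads over the Fpr2KO libraries and 287 over the WT libraries. It ranged from 2.54 to 3.12 CPM in Fpr2KO and from 2.11 to 5.19 CPM in WT, so the Fpr2KO libraries lay inside the WT range (log2 fold change -0.24, SE 0.23, FDR = 0.743 by edgeR). Without WT replicate 2, the highest library, the log2 fold change was -0.015. Whether the 2 anaphylatoxin receptors differed in their response was tested on their ratio within each library. The log2 ratio of C5ar1 to C3ar1 averaged 2.35 ± 0.43 in Fpr2KO and 3.08 ± 0.50 in WT (SD, n = 5), a difference of -0.72 (SE 0.29, exact permutation p = 0.0397, adjusted p = 0.0833 over the 7 ratios), which did not pass.

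Neutrophil markers moved with C5ar1. The 12 marker genes, C5ar1 not among them, included 11 tested, all 11 with lower estimates in Fpr2KO and 8 of them at an unadjusted p under 0.05. Their summed level was 532 to 991 CPM in Fpr2KO and 938 to 1563 CPM in WT. None was at 0, and Ly6g, with 83 reads in all, was below the filter on low counts. Of all genes tested, 6870 of 14669 had lower estimates, and 4.92% were lower and 4.88% higher at an unadjusted p under 0.05. These shares also stand beside the counts of the other lists below. Genes of a list may vary together, so such counts are not separate results. After subtracting group means, C5ar1 went with the mean log2 CPM of the neutrophil list with r = 0.78 over the 10 libraries (exact permutation p = 0.000278, adjusted p = 0.0075 over 27 relations; rho = 0.94, exact p = 0.000278, adjusted p = 0.0075). Without the 2 libraries farthest from the median marker level r was 0.94. It was 0.92 within Fpr2KO and 0.96 within WT, at unlike slopes. The mean log2 CPM of the list went from 4.29 to 5.10 in Fpr2KO and from 5.23 to 5.48 in WT. C5ar1 went from 10.2 to 18.2 CPM in Fpr2KO and from 19.3 to 41.9 CPM in WT. Of the 27 relations of the 9 members with the neutrophil, classical monocyte and red pulp macrophage lists, this was the single one that passed. Relations with the other marker lists, among them the immediate early, platelet and B cell lists, were not tested. Whether the relation of C5ar1 is particular to neutrophil markers was therefore not tested. The immediate early list had a mean log2 CPM of 10.2, 9.84, 9.93, 9.91 and 10.2 in Fpr2KO replicates 1 to 5. In WT replicates 1 to 5 it had 10.5, 10.4, 10.7, 10.2 and 10.1. Like C5ar1, this list was highest in replicates 1 and 5 of Fpr2KO and in replicates 1 and 3 of WT. All 4 platelet markers tested had lower estimates in Fpr2KO, and all 6 B cell markers had higher ones. In each of these 2 lists, 3 had an unadjusted p under 0.05. The 8 immediate early genes, which respond to handling of cells, had lower estimates too, at 9493 to 11781 CPM summed in Fpr2KO and 11499 to 17147 CPM in WT, 7 of them at an unadjusted p under 0.05, and all 8 erythroid markers had higher estimates, each at an unadjusted p under 0.05 (median log2 fold change 1.23). The part of these transcripts in the C5ar1 difference was not tested. Classical monocyte markers had lower estimates as well, all 8 of them and 6 at an unadjusted p under 0.05 (median log2 fold change -0.72, beside -0.65 for the neutrophil markers), with a summed level of 673 to 926 CPM in Fpr2KO and 938 to 1459 CPM in WT. The r of C5ar1 with that list was -0.19 (exact permutation p = 0.671; rho = 0.03, exact p = 0.951), and 0.08 without the 2 farthest libraries. It was 0.70 within Fpr2KO and -0.63 within WT, so the pooled value joins opposite signs. All 6 nonclassical monocyte markers had lower estimates too, 2 of them at an unadjusted p under 0.05 (median log2 fold change -0.26). They summed to 1808 to 2562 CPM in Fpr2KO and 2199 to 2933 CPM in WT. The part of monocyte transcripts of either kind in the C5ar1 difference was not tested.

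Itgam encodes the alpha M chain (CD11b) of complement receptor 3, the integrin through which myeloid cells bind particles coated with the C3 fragment iC3b. The gene lies on the plus strand of chromosome 7 (128062640 to 128118491). It was measured at 62.8, 64.2, 59.5, 57.2 and 83.4 CPM in Fpr2KO and at 101, 114, 122, 71.7 and 79.0 CPM in WT. Fpr2KO replicates 1 to 4 lay below all WT libraries, and replicate 5 lay above WT replicates 4 and 5. The mean was 65.4 ± 10.4 CPM in Fpr2KO and 97.4 ± 21.7 CPM in WT (SD, n = 5). The log2 fold change was -0.57 (SE 0.15), which is 32.8% lower, with an unadjusted p = 0.00192 and FDR = 0.209 by edgeR. Of the 31-base sequences of Itgam, 68.3% also occur in another gene, the overlapping Gm49368 among them, so its count is uncertain. Gm49368, added here after its values were seen, had 99 reads in Fpr2KO and 211 in WT. Its level was 0.875 to 1.56 CPM in Fpr2KO and 1.76 to 3.12 CPM in WT (log2 fold change -1.09, SE 0.23, FDR = 0.131 by edgeR). All its Fpr2KO libraries were below all its WT libraries, as were those of 0.566% of all genes tested. The 2 genes need not be separate measurements.

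Itgb2 encodes the beta chain that pairs with alpha M and with the alpha chains of the other leukocyte integrins. It averaged 627 ± 56.5 CPM in Fpr2KO and 708 ± 56.3 CPM in WT (SD, n = 5), a log2 fold change of -0.18 (SE 0.09, FDR = 0.530, edgeR). The log2 ratio of Itgam to Itgb2 within a library averaged -3.27 ± 0.12 in Fpr2KO and -2.89 ± 0.28 in WT, a difference of -0.38 (SE 0.14, exact permutation p = 0.0476, adjusted p = 0.0833 over the 7 ratios), which did not pass. C5ar1 relative to Itgam differed by -0.33 (SE 0.18, exact permutation p = 0.127), and by -0.20 without WT replicate 1. After subtracting group means, C5ar1 and Itgam had r = 0.71 (exact permutation p = 0.0553, adjusted p = 0.284 over the 36 pairs; rho = 0.73, exact p = 0.0397, adjusted p = 0.204), and 0.79 without the 2 farthest libraries. The relation of Itgam to the neutrophil list was weaker, with r = 0.36 (exact permutation p = 0.246, adjusted p = 0.700 over 27 relations; rho = 0.56, exact p = 0.112, adjusted p = 0.759), and 0.64 without the 2 farthest libraries.

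**Figure D4:**
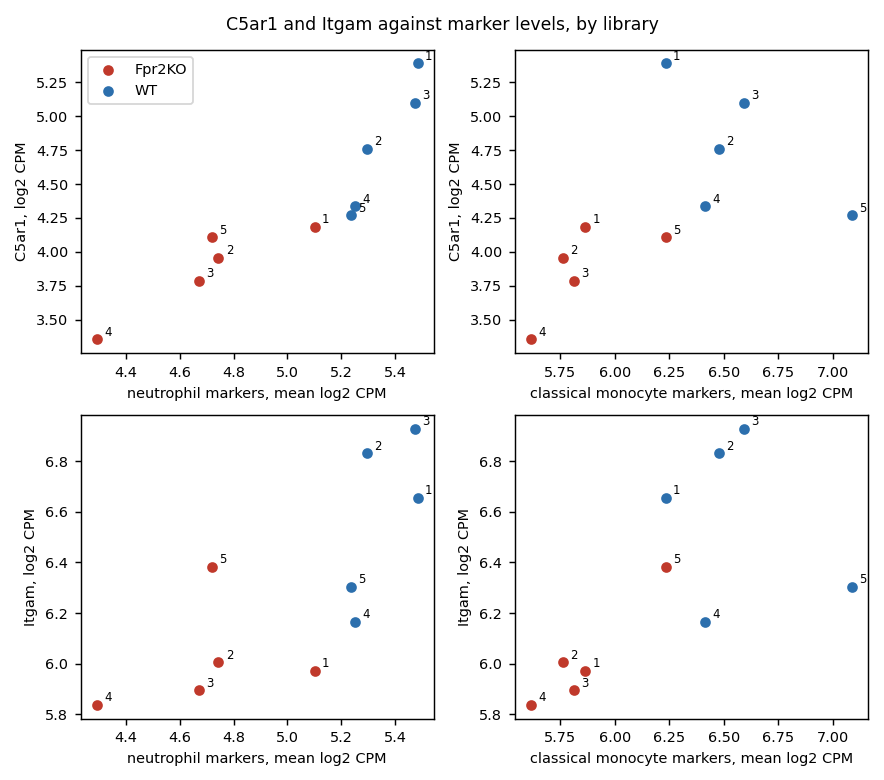
C5ar1 (top) and Itgam (bottom), as log2 CPM, against the mean log2 CPM of the 11 neutrophil markers tested (left), and 8 classical monocyte markers (right) in each library, Fpr2KO in red and WT in blue, with replicate numbers. C5ar1 is ordered much as the neutrophil markers are within each group (group-centred rho 0.94), and both marker levels are lower in Fpr2KO, with WT replicate 5 highest for monocyte markers.

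The promoters of Itgam and C5ar1 are shown because these receptors had the smallest p-values among the members. They are the 250 bases before the RefSeq start on GRCm38.p6, Itgam at chr7:128062390-128062639 on the plus strand and C5ar1 at chr7:16259339-16259588 on the minus strand, with the same motifs in capitals.
Itgam: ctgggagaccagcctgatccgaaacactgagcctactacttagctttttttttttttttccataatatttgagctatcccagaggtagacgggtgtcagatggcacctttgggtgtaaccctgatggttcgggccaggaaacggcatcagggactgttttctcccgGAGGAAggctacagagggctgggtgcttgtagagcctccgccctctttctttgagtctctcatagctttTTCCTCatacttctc
C5ar1: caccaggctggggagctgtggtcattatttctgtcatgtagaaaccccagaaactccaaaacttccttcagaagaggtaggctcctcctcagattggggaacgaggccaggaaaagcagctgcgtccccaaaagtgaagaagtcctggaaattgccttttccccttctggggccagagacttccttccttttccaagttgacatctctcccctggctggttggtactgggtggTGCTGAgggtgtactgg
Itgam held GAGGAA 2 times, at -84 to -79 and, on the other strand, at -15 to -10, and C5ar1 held TGCTGA once, at -17 to -12. The RefSeq start of C5ar1 lies inside the GENCODE gene model, which reaches 16259540. Most of the C5ar1 window, with its match, is therefore within that gene model.

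Vsig4 encodes CRIg, a receptor of the immunoglobulin superfamily on tissue macrophages that binds C3b and iC3b, and lies on chromosome X (96247203 to 96293438). It was scarce, at 4.36, 5.15, 3.51, 2.57 and 2.27 CPM in Fpr2KO and at 5.47, 5.29, 10.3, 2.57 and 4.31 CPM in WT. The groups overlapped, and WT replicate 3 stood highest. The log2 fold change was -0.65 (SE 0.33, FDR = 0.546 by edgeR), and -0.32 without WT replicate 3. The log2 ratio of Itgam to Vsig4 was 4.20 ± 0.60 in Fpr2KO and 4.20 ± 0.44 in WT (SD, n = 5), a difference of -0.0028 with an SE of 0.33 that leaves room for a difference in either direction.

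Of 39 other complement genes, 19 had enough reads to be tested, 7 of them with higher and 12 with lower estimates in Fpr2KO. None passed the FDR of 0.05 by edgeR, the smallest FDR being 0.480, and DESeq2 called 0 of them. At an unadjusted p under 0.05, 1 of the 19, C4a, was lower and 0 were higher. Of all genes tested, 4.92% were lower and 4.88% higher at that threshold, so this count is near the share over all genes. The median log2 fold change of the 19 was -0.07. C4a was measured at 3.65 ± 1.31 CPM in Fpr2KO and 5.33 ± 1.09 CPM in WT (SD, n = 5), a log2 fold change of -0.54 (SE 0.23, FDR = 0.480, edgeR). Its near-identical neighbour C4b was measured at 24.1 ± 6.89 CPM in Fpr2KO and 25.7 ± 6.16 CPM in WT (log2 fold change -0.10, SE 0.19). Both lie on chromosome 17 (within 34728380 to 34823464), nearer to Fpr2 than C3 does. Since 43.3% of the 31-base sequences of C4a are shared with C4b, reads could have been assigned to either. The C1 proteases C1ra and C1s1, which act with C1q, had lower estimates, -0.24 (SE 0.16) and -0.13 (SE 0.22) on the log2 scale. These are uncertain too, because 59.6% of the 31-base sequences of C1ra are shared with C1rb and other genes, and 47.6% of those of C1s1 with C1s2 and the overlapping Gm16567. Serping1, the C1 inhibitor, and Clu, clusterin, also had lower estimates, -0.26 (SE 0.19) and -0.34 (SE 0.24).

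Of the other complement genes, the most abundant per length was Fcna, ficolin A, a soluble lectin of the lectin pathway. It had 347 ± 55.9 CPM per kilobase in Fpr2KO and 327 ± 54.1 in WT (SD, n = 5), between C1qa and Cfp. Itgb2 followed at 205 ± 18.5 in Fpr2KO and 232 ± 18.4 in WT, and Itgax, the alpha chain of complement receptor 4, at 86.4 ± 11.01 in Fpr2KO and 95.4 ± 12.1 in WT. Cr2, a complement receptor of B cells and follicular dendritic cells, had 83.9 ± 11.02 in Fpr2KO and 79.4 ± 19.6 in WT. C6, a component of the membrane attack complex, had 47.5 ± 9.23 in Fpr2KO and 48.4 ± 4.82 in WT. The surface inhibitor gene Cd55 had 30.5 ± 3.81 in Fpr2KO and 29.4 ± 6.18 in WT, and Cr1l (Crry), the rodent inhibitor of C3 activation on cells, 9.50 ± 0.657 in Fpr2KO and 9.94 ± 0.527 in WT. C5ar2, the other receptor for C5a, had 2.22 ± 0.238 in Fpr2KO and 2.37 ± 0.347 in WT, with a log2 fold change of -0.09 (SE 0.13). None of these differed beyond the FDR. The 20 genes not tested included the terminal components C7, C8a, C8b and C9, with 0 to 14 reads each over the 10 libraries, and 6 of the 20 had 0 reads.

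**Figure D5:**
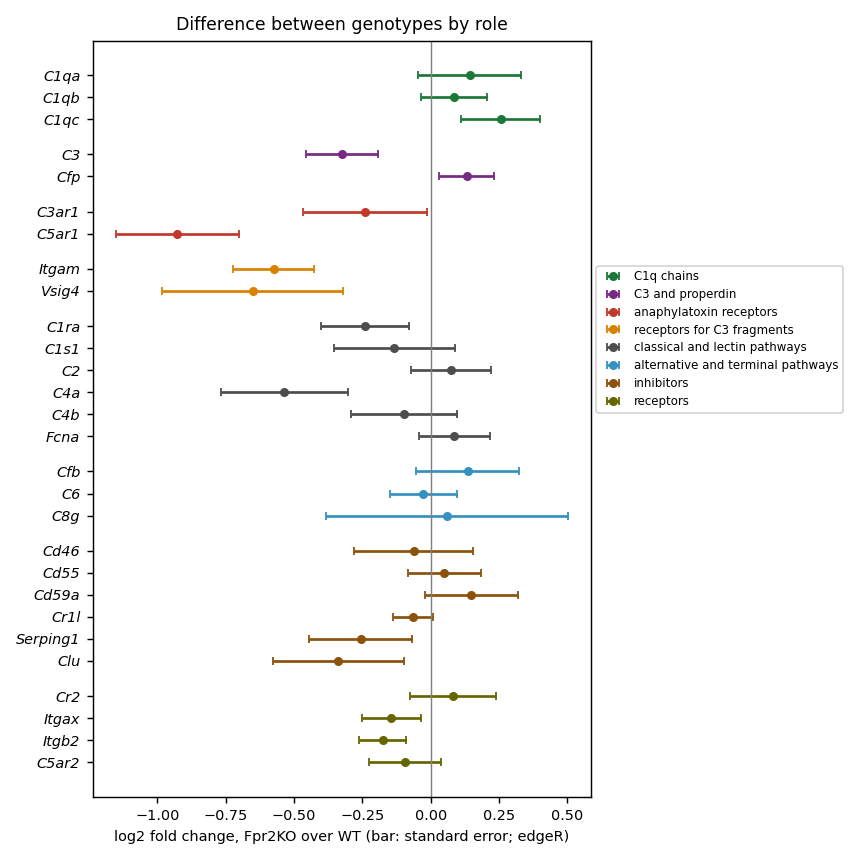
Log2 fold change, Fpr2KO over WT, with its standard error (edgeR) for the 9 members and the 19 other complement genes tested, coloured by role. Values left of 0 are lower in Fpr2KO. C5ar1 lies farthest left at -0.93, and none of the 28 genes passed an FDR of 0.05.

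For each member, the 3 genes with the most similar pattern were taken from 9206 protein-coding genes by Pearson's r of group-centred log2 CPM over the 10 libraries. For C1qa these were Batf (0.99), Twf2 (0.99) and Fcgrt (0.98). For C1qb they were Rit1 (0.96), Arrb2 (0.95) and Tmem14c (0.95), and for C1qc Bst2 (0.97), Tmem14c (0.97) and Aldoa (0.96). For Cfp they were Fcna (0.97), Smox (0.97) and Gnpda1 (0.93), and for C3 Brpf3 (0.88), Ms4a4a (0.87) and Gpr141 (0.87). Among the receptors, C5ar1 was closest to Selenon (0.98), Csf3r (0.95), which is in the neutrophil list, and Cxcl2 (0.94). Itgam was closest to Myadm (0.98), Alox5 (0.97) and Pot1b (0.97), Vsig4 had Herpud1 (0.93) and Enpp2 (0.92) among its closest, and C3ar1 was closest to Enc1 (0.94), Kidins220 (0.84) and Syne1 (0.84). With 10 libraries and 9206 genes searched, high values arise without any link between genes, and they are given as a description.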

How the data were processed

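RNA sequencing of polyadenylated RNA was analysed from 5 Fpr2KO and 5 WT libraries, grouped by the genotype label, with replicate numbers from the titles. The authors deposited raw read counts per Ensembl gene, with no normalisation, and the total per library sets the precision of each value. The submitters' processing notes name HTSeq 0.10.0, FastQC 0.10.1, mm10 and GRCm38. The aligner, whether strand was used and the gene annotation were not given in the sources used here, so reads of a gene could not be separated from those of an antisense or overlapping one. Symbols, positions and exon lengths came from GENCODE M21 (GRCm38), which matched 52081 of 55414 identifiers. The 3333 others held at most 0.184% of a library. Promoters came from RefSeq (GRCm38.p6).

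Counts were tested in R 4.3.3 with edgeR 4.0.16 (filterByExpr, TMM, glmQLFit with robust=TRUE, glmQLFTest, two-sided, Benjamini-Hochberg over 14669 genes). The SE is the log2 fold change divided by the square root of F. CPM uses TMM-scaled library sizes, and log2 CPM a prior count of 2. The fit was tested on simulated data. The 20 pairs of libraries within a group differed by more than sampling noise (chi-square per degree of freedom 11.2 to 60.9). Ratios were compared by exact permutation and relations by exact permutation within groups (14400 arrangements). Alternatives were RLE and upper quartile scaling, 2 other filters, DESeq2 1.42.0, limma voom (limma 3.58.1), robust=FALSE, a replicate block and leaving out each library. The members and lists were chosen with earlier results of these data known. Named were all members, the 8 most abundant other complement genes per length, the 6 with the smallest p, and the 3 nearest genes of each member. C5ar2, C4b, C1s1, Cd46 and the genes listed as not tested fall outside this rule and were named after their values were seen. Of the genes the rule chose, 1 other complement gene, left out of the counts of that list, and 1 nearest gene are not reported here. Relations with marker lists were added after seeing the data.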

Additional observations from a re-analysis of the deposited data

Results flagged for a closer look

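Of 56 groups of 5 libraries (28 complement genes, 2 genotypes), 6 held a library far from the other 4, where chance flags about 1 in 20 groups. Itgam was high in Fpr2KO replicate 5, at 83.4 CPM beside 57.2 to 64.2 CPM in the other Fpr2KO libraries. The same library was high for Itgax, at 506 CPM beside 375 to 410.4 CPM, and for C5ar2, at 9.39 CPM beside 7.27 to 7.76 CPM. Cd46 was low in Fpr2KO replicate 1, at 2.34 CPM beside 4.49 to 4.84 CPM. In WT, replicate 3 was high for Itgb2, at 804 CPM beside 663 to 700.4 CPM, and for Clu, at 107 CPM beside 43.3 to 58.6 CPM.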

How the results depend on the processing

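Of 300 recomputed values, 285 kept their direction and their side of the threshold or, for counts of genes, stayed close to the main count. None of the 9 members passed in edgeR under the other scalings and filters, with limma voom, with the replicate block or without any 1 library, and 2 passed with DESeq2: C5ar1 (log2 fold change -0.94, adjusted p = 0.00447) and Itgam (-0.59, adjusted p = 0.027). The cause was not tested. The count of genes past the FDR, 10, was 62 with no filter on low counts, 185 with DESeq2, 64 with the replicate block, and 8 to 51 when 1 library was left out (51 without WT replicate 5, and 26 without WT replicate 4 or without Fpr2KO replicate 2). Same-numbered libraries did not deviate together (correlations across genes from -0.24 to 0.29), so the numbers were not taken as pairs, and the block changed no call of a member (C5ar1 adjusted p = 0.0502). Leaving out 1 library gave log2 fold changes of -1.05 to -0.76 for C5ar1, -0.68 to -0.49 for Itgam, -0.39 to -0.25 for C3, -0.84 to -0.32 for Vsig4, -0.37 to -0.015 for C3ar1 (the value nearest 0 without WT replicate 2), 0.17 to 0.35 for C1qc, 0.030 to 0.26 for C1qa, 0.065 to 0.19 for Cfp and -0.0015 to 0.15 for C1qb, which turned sign without Fpr2KO replicate 1. The log2 ratio of C5ar1 to Itgam differed by -0.42 to -0.20 (the value nearest 0 without WT replicate 1). The ratio of Itgam to Vsig4 ranged from -0.23 to 0.15 and turned sign without Fpr2KO replicate 1, 2 or 3 or WT replicate 2 or 4. Paired by number, the exact sign-flip test of the ratios cannot pass with 5 pairs. The depth of C3ar1 and Vsig4, at 37 and 45 reads in their lowest library, and their spread between WT libraries both limit what could be detected for them.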
